A study of Homo sapiens with 79 samples.

Results

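RNA recovered with PHF8 by fRIP was set against input RNA of K562, an established human erythroleukemia cell line. In fRIP, living cells are cross-linked lightly with formaldehyde, here at 0.1%, broken by sonication and mixed with an antibody to a protein of interest, whose bound RNA is sequenced beside RNA kept from the lysate as input. The series holds 79 libraries, of which 70 are fRIPs of 24 proteins and 9 are inputs in 3 sets of 3. The 6 libraries chosen here are the 3 PHF8 replicates, all made with a single antibody, and the 3 replicates of input set 3, the nearest set, with all 9 inputs as a check. Every library comes from untreated, cross-linked K562 cells, and the groups differ in the immunoprecipitation, which the inputs did not undergo, and between fRIPs in the antibody. The labels tie no PHF8 library to a particular input library. No fRIP with a nonspecific antibody was analysed here, so the other fRIPs serve as the comparison that holds no input.

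PHF8 is a histone demethylase of the JmjC family, X-linked like its relatives KDM5C and KDM6A. Its PHD finger binds trimethylated lysine on histone H3 at active promoters, and its catalytic domain removes repressive methyl marks from H3 and H4. It is known for roles in ribosomal RNA transcription and in cell cycle genes, and mutations in the gene cause intellectual disability with cleft lip and palate. It is not a classical RNA binding protein, which makes the RNA in its fRIP a question for these data.

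PHF8 libraries were the shallower side of the comparison, with depths of about 5.16, 6.66 and 7.88 M fragments against 14.9, 11.9 and 15.2 M for input set 3, as read from the steps in the lowest values. On log2(FPKM + 1), the scale of every difference given here, replicates of PHF8 correlated at 0.949 to 0.952 over the 25442 genes tested, replicates of input set 3 at 0.977 to 0.981, and PHF8 with input set 3 at 0.940 to 0.947. PHF8 and the fRIP of CHD7, a chromatin remodeler, correlated at 0.936 to 0.955, so single CHD7 libraries lay as close to PHF8 libraries as these lay to each other. Erythroid markers were present in both groups. HBE1, an embryonic globin, had 487, 529 and 545 FPKM in PHF8 fRIP and 592, 616 and 660 in input. Of 8 K562 markers none was enriched or depleted. Of 3 tested markers of other cell types, 1 was enriched and none depleted, and the median was -0.04. The part of other cell types in the results was not tested.

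Against input set 3, 1021 genes were enriched and 426 were depleted, that is 4.01% and 1.67% of genes tested, at an adjusted p (limma, Benjamini-Hochberg) under 0.05 and a change over 2-fold. The direction of the balance depended on the scale: 70.6% of called genes were enriched as deposited, with a median over all genes of 0.12, but 20.6% after the median of tested genes was set to 0 and 54.3% after the median of abundant mRNAs was. Single genes are therefore given with their own values, and the medians of gene lists are to be read against that of all genes, 0.12. Where the median of tested genes in each library was set to 0, the median difference over all genes was -0.21. Against all 9 inputs, 3.2% of genes (815) were enriched and 1.72% (438) were depleted. Of the genes called against input set 3, 614 of 1021 and 299 of 426 were also called against the 9 inputs. In 675 of the enriched genes every PHF8 library exceeded every input library, a separation that 11.8% of all genes showed, and in 325 of the depleted genes every PHF8 library lay below, against 4.74% of all genes. These overlaps and separations use the libraries that made the calls, so they are in part fixed by the calls.

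The mRNA of PHF8 itself was enriched in its own fRIP. PHF8 lies on chromosome X (GRCh37, 53963109 to 54075391, minus strand). Its mRNA had 80.5, 76.0 and 35.2 FPKM in the PHF8 fRIP and 17.0, 19.7 and 16.1 in input set 3. The lowest PHF8 library was above the highest of the 9 inputs, but replicate 3 lay far below the other two and below the mean of the fRIP of DNMT1. The log2 difference was 1.72 ± 0.17 (SE, n = 3 and 3, limma adjusted p = 4.28e-11). This SE and p rest on a spread estimated over all 79 libraries. A fit of the 6 libraries alone gave the same difference with a limma adjusted p = 0.0391. A two-sided exact permutation test gave p = 0.1 for 3 against 3 libraries and p = 0.00455 for 3 against 9, each the smallest the design allows. Among 24 fRIPs, PHF8 mRNA was highest in the fRIP of SUZ12, a subunit of the Polycomb repressive complex, at 68.2 ± 1.90 FPKM (SD, n = 3), then in that of PHF8 at 63.9 ± 24.9, then in that of the DNA methyltransferase DNMT1 at 40 ± 1.65. SUZ12 and PHF8 did not differ beyond the spread of the PHF8 libraries. The difference from the mean of the other 23 fRIPs was 1.5 (limma adjusted p = 4.42e-14) and that from CHD7 was 1.45 (limma adjusted p = 8.64e-09).

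**Figure D1:**
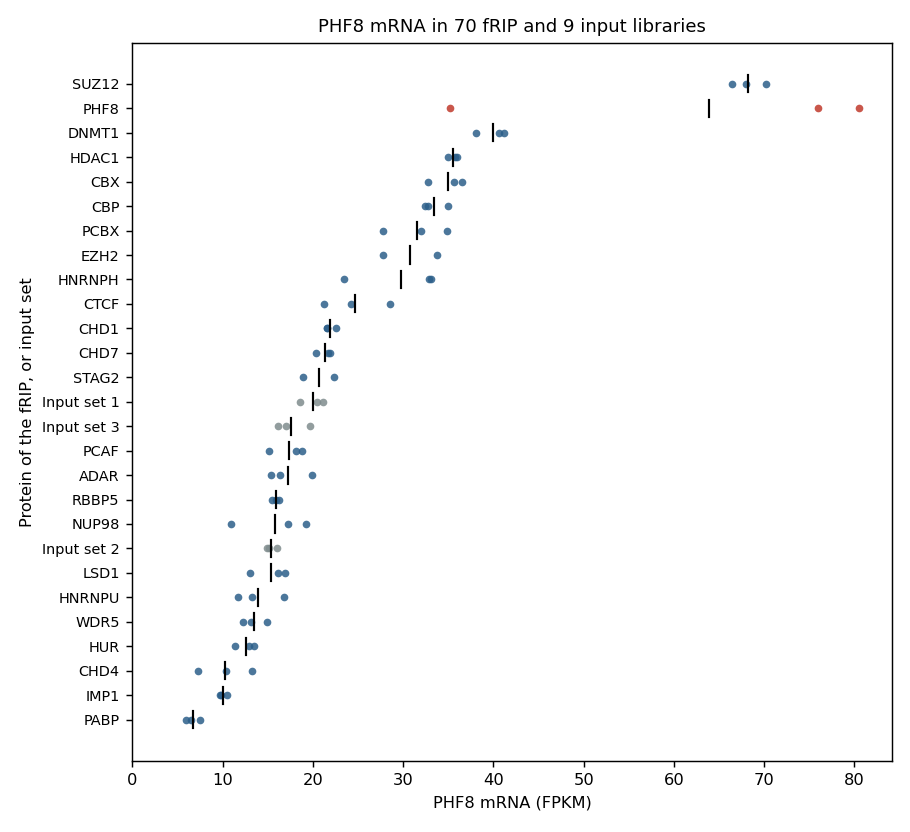
PHF8 mRNA in FPKM on the horizontal axis, in every fRIP and input library, with 1 point per library and a bar at the mean of each group; PHF8 fRIP is red, inputs are grey and other fRIPs blue. The PHF8 fRIP libraries sit at 80.5, 76.0 and 35.2 FPKM, all above the 9 inputs, and the SUZ12 fRIP libraries between 66.4 and 70.2.

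The enrichment of PHF8 mRNA was in its coding isoforms. PHF8-205 rose from 2.62, 2.89 and 0.751 FPKM in input to 23, 18.2 and 6.62 in PHF8 fRIP, a log2 difference of 2.38. PHF8-207, PHF8-202, PHF8-203, PHF8-211 and PHF8-212 were enriched by 2.08, 1.36, 1.06, 1.09 and 1.21, the last through 1 library only, since its values were near 0 in the other two. The call of PHF8-203 (limma adjusted p = 0.0438) rested on replicates 1 and 2, as replicate 3, at 2.18 FPKM, lay within the inputs. The retained-intron isoforms PHF8-216, PHF8-217 and PHF8-218 differed by 0.38 to 0.48 and were not called. They made up 2.52%, 4.11% and 18.7% of the gene's FPKM in the PHF8 fRIP and 10.3%, 7.26% and 14% in input set 3, so the groups overlapped and the mRNA did not follow the retained introns described below.

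The relatives of PHF8 were next. Of 20 JmjC demethylase genes, 3 were enriched, PHF8 itself among them, and none depleted, beside 4.01% and 1.67% of all genes. The median difference was 0.47 against 0.12 over all genes, or 0.14 against -0.21 once the median of tested genes was set to 0. Apart from PHF8 the enriched genes were KDM6B, which removes methyl groups from lysine 27 of H3, and KDM2A, which acts on lysine 36 and binds CpG islands. KDM6B had 39.1, 39.8 and 17.3 FPKM against 8.83, 13.4 and 9.99, a difference of 1.42 ± 0.35 (SE; limma adjusted p = 0.00209). KDM2A had 60.5, 44.7 and 50.5 against 24.2, 24.4 and 22.4, a difference of 1.09 ± 0.14 (SE; limma adjusted p = 1.26e-08). It fell under 2-fold with the median of tested genes or of abundant mRNAs set to 0. In KDM6B and KDM2A all PHF8 libraries lay above the libraries of input set 3. KDM5C, a demethylase of H3 lysine 4, stood just inside 2-fold at 0.94. The nearest paralogs differed little, with PHF2 at -0.29 and KDM7A, listed under its older symbol JHDM1D, at 0.16. KDM6B and PHF8 were also higher than in CHD7 fRIP, whereas the list as a whole had a median of -0.18 against CHD7.

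Genes that PHF8 is known to work with moved little as a group. Of 6 partners, including the host cell factor HCFC1 and the transcription factor E2F1, none was called. Among the COMPASS methyltransferases, which write the histone mark that PHF8 reads, 2 of 15 entries were enriched, 1 of them uncertain, beside 4.01% of all genes. WDR82, a subunit of the SETD1 complexes, had 56.9, 45.9 and 42.2 FPKM against 22.5, 22.5 and 19.9, a difference of 1.11 ± 0.19 (SE; limma adjusted p = 1.60e-05). It fell under 2-fold with the median of tested genes set to 0. KMT2B, a low entry, had 8.71, 5.33 and 5.07 against 1.88, 2.25 and 2.54, but the same enzyme is also listed under the older symbol WBP7 at -0.34, so its reads may be split and its call is uncertain. In the RNA polymerase I machinery, beside the same 4.01%, 1 of 15 genes was enriched, TAF1C, a subunit of the selectivity factor that recruits this polymerase to ribosomal DNA, with 53.2, 46.6 and 37.4 FPKM against 20.1, 23.8 and 19.4 and a difference of 1.07 ± 0.19 (SE; limma adjusted p = 2.81e-05). TAF1C fell under 2-fold with the median of tested genes or of abundant mRNAs set to 0, so its call depends on the scale. Ribosome biogenesis factors had no call among 15 and a median of -0.31, which was 0.08 against input set 1. Of 23 entries for E2F cell cycle genes none was called. CDC25A, a phosphatase that starts S phase, came nearest with 53.7, 39.8 and 39.5 FPKM against 22.5, 20.5 and 22.4, a difference of 0.98. Of 20 genes of X-linked intellectual disability only PHF8 was called.

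The depleted RNAs included those of mitochondria and of the ribosome. All 13 mRNAs of the mitochondrial genome, which encode subunits of the respiratory chain, were depleted, with a median of -3.34 and a range of -3.72 to -2.80. Together they had 429, 478 and 866 FPKM in PHF8 fRIP against 5705, 6374 and 5395 in input set 3. MT-CO2, a subunit of cytochrome oxidase, had 24.6, 26.7 and 50.0 FPKM against 400.2, 487 and 423, or 13.2-fold more in input (limma adjusted p = 6.18e-19). MT-ATP6 followed at 12.8-fold more in input, then MT-ND4L, and then MT-CO1 at 11.7-fold more in input. PHF8 replicate 3 was highest in each of these. The depletion was shared with CHD7 fRIP, from which the 13 mRNAs differed by a median of -0.50 with none called, while from the mean of the other fRIPs they differed by a median of -1.79. Of 15 mitochondrial transfer RNAs tested, 3 were called depleted, MT-TP, MT-TG and MT-TC, which were listed at 0 in the PHF8 libraries. In RNAs this short a few fragments give a large FPKM and the PHF8 libraries were the shallower ones, so no level or fold is given for them. RPPH1, the RNA of ribonuclease P, had 248, 404 and 323 FPKM against 3169, 2928 and 3689, a difference of -3.34 that was -0.03 against CHD7 and -0.38 against the other fRIPs (limma adjusted p = 0.0758). RN7SL1, the RNA of the signal recognition particle, had 4.72, 3.57 and 21.9 FPKM against 269.7, 174 and 231, and was lower than in CHD7 fRIP by 1.89 on the log2 scale (limma adjusted p = 6.33e-06). The remaining structured RNA with high values, RMRP, fell short of 2-fold at -0.87.

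Of 82 cytosolic ribosomal protein mRNAs, 62 were depleted and none enriched, with a median of -1.25. RPL28 had 34.9, 38.9 and 58.6 FPKM against 212, 239.6 and 253, a difference of -2.42, and RPS12 had 407, 434 and 405 against 1408, 1292 and 1553, a difference of -1.76. In both, every PHF8 library was below every library of input set 3. The members above 0 were RPL7L1, RPL3L and RPL39L, paralogs of the constitutive proteins. Of all genes, 1.67% were depleted and 4.01% enriched. Of 15 translation factors, 3 were depleted, with a median of -0.78. PABPC1, the cytoplasmic poly(A) binding protein, fell by 1.35 on the log2 scale, TPT1 by 1.2 and EEF1A1 by 1.05. Among nuclear-encoded respiratory chain mRNAs 8 of 88 were depleted and 2 enriched, with a median of -0.47 that was 0.09 against input set 1. Replication-dependent histone mRNAs had 17 of 76 depleted, such as HIST1H4C with 64.8, 68.0 and 162 FPKM against 234, 240.1 and 272, but their median of -0.60 became -0.06 against the 9 inputs and 0.59 against input set 1, so no direction is given for the list. Proteasome subunits had no call among 37. Against CHD7 fRIP the ribosomal protein list had a median of -0.24 and the histone list one of 0.06.

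**Figure D2:**
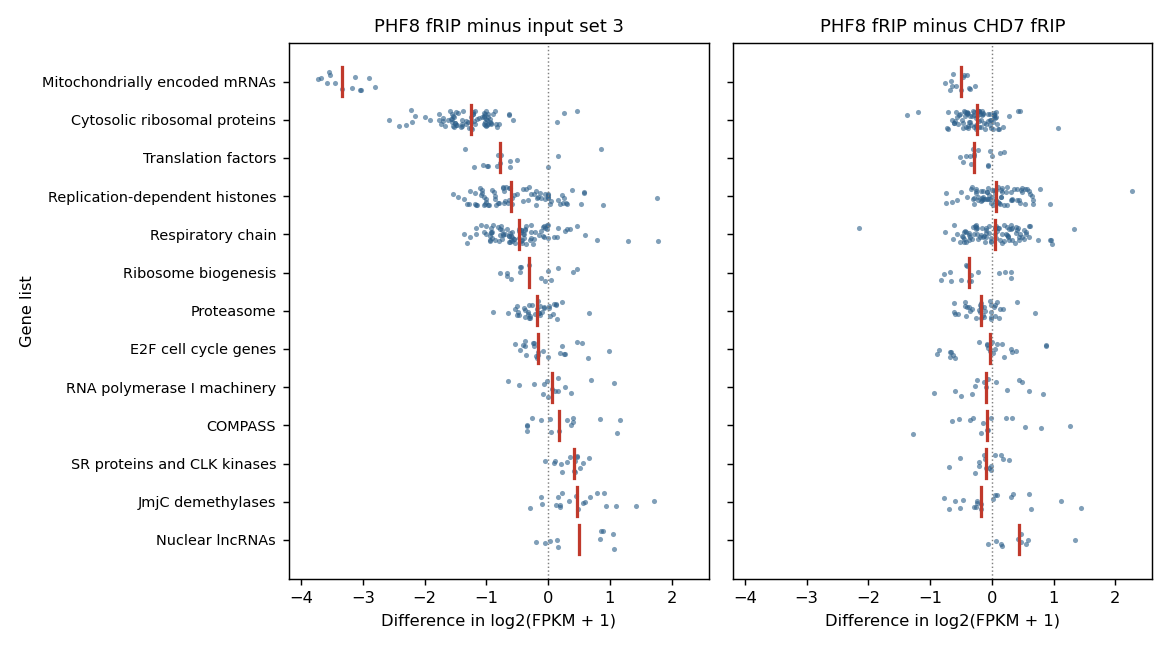
Differences in log2(FPKM + 1) for the members of 13 gene lists, PHF8 fRIP minus input set 3 on the left and minus CHD7 fRIP on the right, with 1 point per gene and a red bar at the median of a list. Mitochondrially encoded mRNAs lie between -3.72 and -2.80 on the left and near -0.50 on the right.

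Genes of lncRNAs were enriched more often than mRNAs, without matching for abundance. The study sampled mRNAs of like abundance for such a comparison, which was not done here. The PHF8 difference had a Spearman correlation of -0.249 with input FPKM across genes, so abundance may enter these shares. Of 5245 lncRNA genes 382 were enriched and 32 depleted, or 7.28% and 0.61%, and of 13645 mRNAs 2.87% were enriched and 1.3% depleted. Their medians were 0.22 and 0.14. Processed pseudogenes went the opposite way from lncRNAs, with 126 of 3972 enriched and 171 depleted. Antisense lncRNAs named for a neighbour had 35 of 441 enriched and 1 depleted, and LINC genes 10 of 153 and 1. Their medians of 0.31 and 0.26 became -0.01 and -0.07 once the median of tested genes was set to 0, where the median difference over all genes was -0.21. Of 10 nuclear lncRNAs, 1 was enriched, beside 4.01% of all genes. This was KCNQ1OT1, which silences its imprinted neighbourhood, enriched from 1.35, 1.69 and 1.88 FPKM to 3.91, 3.46 and 6.53. MALAT1 of nuclear speckles had 5777, 5705 and 9145 FPKM against 3151, 3235 and 3372 and a difference of 1.04 ± 1.31 (SE; limma adjusted p = 0.658). NEAT1 of paraspeckles had 175, 117 and 213 against 95, 105 and 73.4, a difference of 0.85. All PHF8 libraries were above those of input set 3 in these 3 genes.

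Among enriched lncRNAs the largest change was that of GS1-600G8.3 on chromosome X, at 44.9, 48.2 and 25.5 FPKM against 5.25, 5.25 and 5.29, a difference of 2.64 ± 0.22 (SE; limma adjusted p = 3.60e-14). It overlaps ATXN3L, a relative of the ataxin-3 gene on the opposite strand, which had 111, 145 and 85.2 FPKM against 24.5, 24.5 and 28.2, and the pseudogene GS1-600G8.4 lies downstream of it with a difference of 2.56. Whether the counting used strand is not given in the sources used here, so reads of GS1-600G8.3 and ATXN3L cannot be told apart. RP11-1094M14.11 on chromosome 17 had 93.8, 61.9 and 95.6 FPKM against 18.8, 17.1 and 17.8. It was higher by 2.10 than in CHD7 fRIP, where it stood at 18.7, 20.2 and 16.5. The next lncRNAs, PRR7-AS1, RP11-362A9.3, RP4-657D16.6 and MIR17HG, had differences of 2.11, 2.07, 2.06 and 2.04. RP4-657D16.6 was not called against input set 1, where its difference was 0.85 (limma adjusted p = 0.221). Some of these RNAs had a higher mean FPKM in another fRIP than in that of PHF8. GS1-600G8.3, ATXN3L and GS1-600G8.4 stood at 86.4, 492 and 227 in SUZ12. PRR7-AS1 stood at 119 in HNRNPH, RP4-657D16.6 at 50.8 in ADAR and MIR17HG at 402 in RBBP5. RP11-1094M14.11 and RP11-362A9.3 were highest in PHF8 fRIP. The depleted lncRNAs with the largest changes after RPPH1 were CTC-250I14.3 and the snoRNA hosts SNHG5 and SNHG6, at -1.58, -1.57 and -1.46, and then RP11-386G11.10 and UCA1 at -1.10 and -1.09. RP11-386G11.10 was under 2-fold at -0.94 against all 9 inputs and at -0.97 without replicate 2 of input set 3.

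Among enriched mRNAs the largest changes were those of C21ORF59, AL356356.1 and VSIG4. C21ORF59 had 52.3, 40 and 44.8 FPKM against 31.4, 0.822 and 0.423, so its difference of 3.41 rests on 2 low input libraries, and against input set 2 it was 0.88 (limma adjusted p = 0.331). AL356356.1 had 54.7, 66.7 and 60.2 against 22.7, 10.4 and 4.49, and was not called against input set 1 (1.24, limma adjusted p = 0.161). VSIG4, a complement receptor of macrophages, had 26.1, 30.2 and 35.8 FPKM against 6.30, 4.64 and 4.58, a difference of 2.36 ± 0.32 (SE; limma adjusted p = 7.12e-08), and its groups did not overlap. EFEMP2, an extracellular matrix protein, and the integrin subunit ITGB7 rose by 2.02 and 1.98. ANKRD10 was the most abundant of this group, with 319, 479 and 168.8 FPKM against 88.6, 84.4 and 69.8. NDUFA4L2, a hypoxia-induced subunit relative of the respiratory chain, had 26.2, 37.6 and 15.5 against 5.47, 5.88 and 8.76. Means above that of PHF8 fRIP were 238 FPKM for AL356356.1 in CBP fRIP and 335 for ANKRD10 in RBBP5 fRIP. In HNRNPH fRIP they were 50.9 for EFEMP2, 37.9 for ITGB7 and 66.3 for NDUFA4L2. C21ORF59 and VSIG4 were highest in PHF8 fRIP, VSIG4 with HNRNPU level at 30.7. Among other gene classes the unclassified host gene MIRLET7DHG and the processed pseudogene RP11-506H20.2 rose by 2.31 and 2.19.

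At the level of transcripts, 8523 of 104506 were enriched and 2445 depleted against input set 3, that is 8.16% and 2.34%. Enriched transcripts made up 77.7% of those called as deposited and 46.4% once the median of tested genes was set to 0. Most of the enrichment lay in 1 isoform class. Retained-intron isoforms, a class that the annotation gives to isoforms holding sequence that other isoforms of the gene splice out, had 4451 of 19390 enriched (23%) and 96 depleted, with a median of 0.55. They were 52.2% of the enriched transcripts and 18.6% of those tested. Protein coding isoforms were balanced, with 1639 of 42461 enriched, 1512 depleted and a median of 0. Isoforms marked for nonsense-mediated decay had 326 and 234 of 8351, and coding genes' isoforms without a defined reading frame 1103 and 159 of 13744. With the median set to 0, retained-intron isoforms still had 2435 enriched and 190 depleted, while protein coding ones had 672 and 3039. Against CHD7 fRIP, where 4.11% of all transcripts were higher and 2.73% lower in PHF8 fRIP, 1789 retained-intron isoforms were higher and 208 lower, with a median of 0.32.

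**Figure D3:**
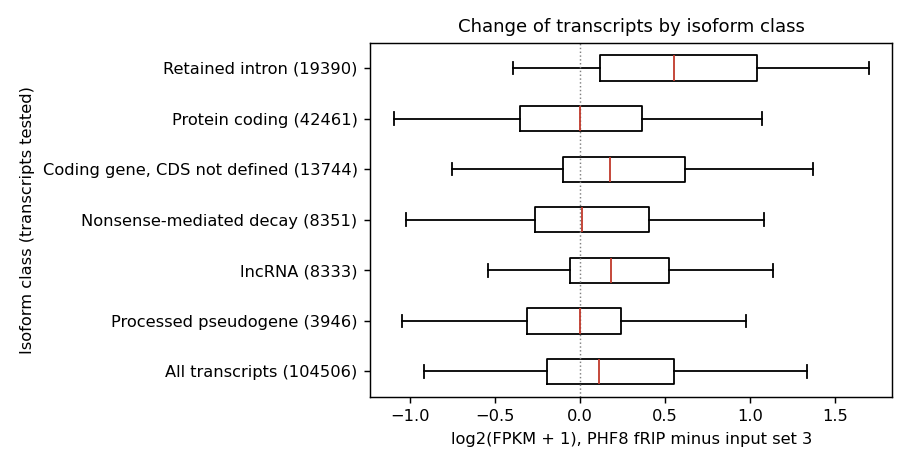
Difference in log2(FPKM + 1), PHF8 fRIP minus input set 3, over the transcripts of each isoform class, with the median (red), the quartiles (box) and the 5th and 95th percentiles (whiskers). The retained-intron box lies to the right of 0 with a median of 0.55, and the protein coding box is centred at 0.

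The shift was seen within genes. In 6510 genes with both kinds of isoform, the share of a gene's FPKM that retained-intron isoforms took had a median of 22.1%, 23.3% and 24.7% in the PHF8 libraries and of 11.5%, 11.9% and 12.7% in those of input set 3. The means were 23.4% ± 1.34 and 12.1% ± 0.60 (SD, n = 3 each), and the groups did not overlap. A two-sided exact permutation test gave p = 0.1 for 3 against 3, the smallest that design allows, and p = 0.00455 against the 9 inputs, whose mean was 14.1% ± 2.44. Input set 1 came nearest to PHF8, at 17.3% ± 0.77 (SD, n = 3), above the mean of CHD7 fRIP. The mean share was higher than in input set 3 in 5614 of the 6510 genes (86.2%), and in 1905 genes (29.3%) every PHF8 library was above all 9 inputs, against 56 genes below. Summed over a gene, retained-intron isoforms had a median difference of 0.75 and coding isoforms one of -0.12, with the former the higher in 85.4% of genes. PHF8 libraries hold fewer fragments than inputs, and isoform values of a gene share its fragments, so depth and share both differed between the groups. Within PHF8 the share was highest in the deepest library, at 7.88 M fragments. Input set 3 was the shallowest input set and had the lowest share. Set 1, at 20.5 to 22.8 M, had the highest, and set 2, at 27.7 to 29.7 M, lay between at 13.1%. The part of depth was not tested. Among genes with at least 10 FPKM in input set 3 the shares were 22.7% and 11.2%.

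Among 24 fRIPs the share in PHF8 ranked at 6. Higher means were found for HNRNPH at 34.2%, SUZ12 at 27.5%, ADAR at 26.4%, CBX at 25.1% and HNRNPU at 23.9%, of which HNRNPH, ADAR and HNRNPU are RNA binding proteins and SUZ12 and CBX act on chromatin. The libraries of CBX, HNRNPU and PHF8 overlapped. The lowest was PABP, the poly(A) binding protein, at 1.16%. CHD7 had 13.0%, 15.4% and 19.6%, all below PHF8 (exact permutation test, p = 0.1), with replicate 3 nearest, and HUR had a mean of 19.9%, below PHF8 by 3.46 percentage points (exact permutation test, p = 0.1).

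**Figure D4:**
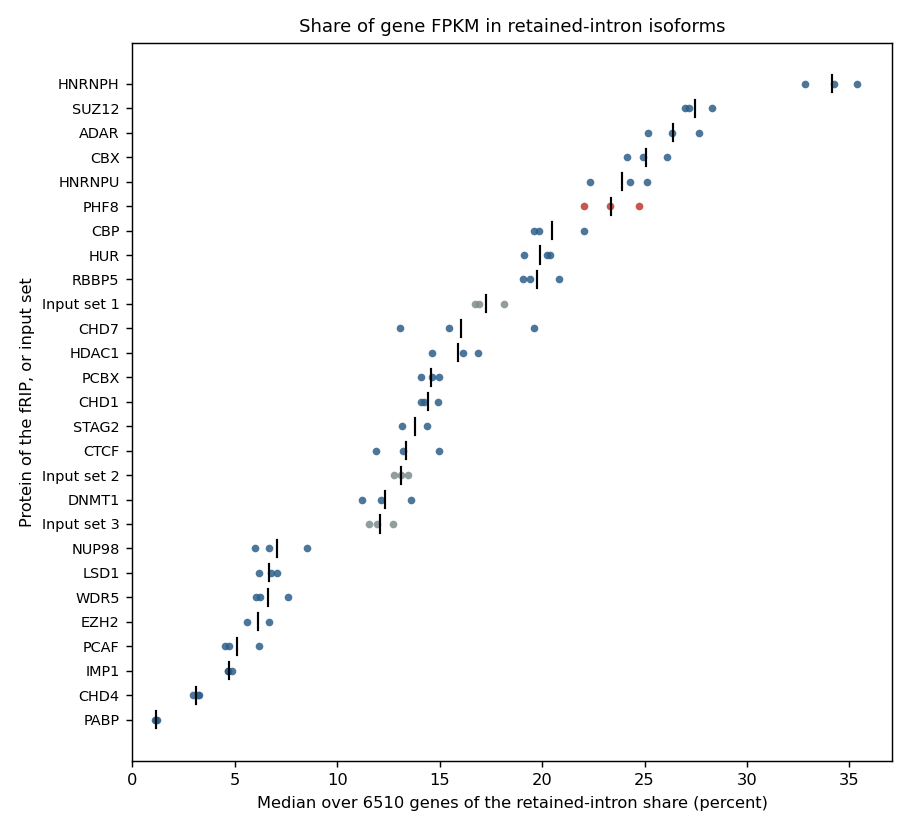
Median over 6510 genes of the percent of gene FPKM in retained-intron isoforms, with 1 point per library and a bar at the mean of each group; PHF8 fRIP is red, inputs are grey and other fRIPs blue. The PHF8 libraries sit at 22.1%, 23.3% and 24.7%, to the right of all 9 inputs, which lie between 11.5% and 18.2%.

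Isoforms with the largest changes show what the class holds. WSB1-212, from the gene of a ubiquitin ligase adapter, had 15.5, 15.1 and 37 FPKM in PHF8 fRIP and was at essentially 0 in the 3 libraries of input set 3. PCBP2-214, from a poly(C) binding protein gene, had 28.9, 37 and 18.4 FPKM against 2.03 in 1 library of input set 3 and essentially 0 in the other two, but it had 4.32 to 9.13 FPKM in the 6 libraries of input sets 1 and 2, and the retained-intron share of PCBP2 was 43.0%, 55.8% and 31.7% against 9.58%, 12.4% and 13.0%. CANX-204, from the gene of the endoplasmic reticulum chaperone calnexin, had 64.5, 51.8 and 63.0 against 8.16, essentially 0 and 2.6, and the share of CANX was 32.8%, 21.9% and 29.0% against at most 1.82%. XPO1-216, from the nuclear export receptor gene, had 22.3, 15.1 and 18.8 FPKM against 1.13 and values near 0. All 4 were also higher than in CHD7 fRIP, XPO1-216 by 4.05 (limma adjusted p = 3.33e-05).

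The splice donors of other isoforms that exons of these isoforms run past are given below, apart from 1 in CANX-204 that belongs to an intron of CANX-205, because they mark where sequence that those other isoforms splice out starts. Each line holds 30 bases of GRCh37, read 5′ to 3′ on the strand of the gene, that run from the end of an exon into the intron, with the first bases of the intron, GT, in capitals. The intron is spliced out in another isoform of the same gene. None of the exons holds that intron whole, so the windows show an exon that extends past a donor, under an annotation as retained intron, and not a complete retained intron. No such site was found for WSB1-212.
PCBP2-214, plus strand, chr12:53861068-53861097: ggattcagtgGTatggatacctcagtgttt
CANX-204, plus strand, chr5:179126041-179126070: gcggggcaagGTgtgcgggcgggaaggggc
CANX-204, plus strand, chr5:179135372-179135401: tcattgttcaGTaagtgaaatgcttgttgg
XPO1-216, minus strand, chr2:61753535-61753564: gaatacgaaaGTaagcaagtggtggtttta

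The opposite change was rarer. Among retained-intron isoforms RBM39-221, of a splicing factor gene, had 23.9, 7.98 and 21.4 FPKM in input and was near 0 in PHF8 fRIP, and MZT2B-206, SNRPA1-209 and ARL6IP4-213 fell by 3.99, 3.22 and 3.16 on the log2 scale. Coding isoforms with the largest losses were those of RPL22, RPL32, HNRNPH1 and RPL28. HNRNPH1-204, from an hnRNP gene that was itself higher in the fRIP by 0.71, went from 15.4, 27.3 and 23.6 FPKM to values near 0. The coding isoform with the largest gain was PRAME-207, from a tumour antigen gene, with 59.8, 55.8 and 86.2 FPKM and essentially 0 both in input set 3 and in CHD7 fRIP. Isoform values of one gene are estimated jointly, so a gain in one can come with a loss in another. Of mRNA genes with a retained-intron isoform, 160 of 229 enriched genes (69.9%) had one that was enriched, as did 41 of 84 depleted genes (48.8%) and 2381 of 6395 genes that were not called (37.2%). More of the enriched mRNA genes, 184, had an enriched coding isoform. The FPKM of a gene sums its isoforms, so these counts are in part fixed by the call of the gene.

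Genes that host small nucleolar RNAs in their introns illustrate how isoforms moved within a gene. None of 15 hosts was enriched as a gene and 2 were depleted. Their retained-intron isoforms were enriched in 34 of 51 cases and depleted in none, with a median of 1.74, beside 23% enriched among all retained-intron isoforms. GAS5 gave 11 of the 34 and SNHG1 9. The hosts' other isoforms were enriched in 14 of 112 cases and depleted in 16. This grouping was made after values were seen. GAS5, host of C/D snoRNAs, had 678, 746 and 619 FPKM as a gene against 629, 549 and 738, and did not differ. Its retained-intron isoforms summed to 453, 474 and 459 FPKM against 92.5, 69.4 and 89.6, and its other isoforms to 225, 272 and 160 against 536, 479 and 649. GAS5-204, a retained-intron isoform, had 63.0, 72.2 and 57.5 FPKM against 4.88, 4.58 and 4.90, while the spliced GAS5-218 and GAS5-221 fell by 1.95 and 1.74 on the log2 scale. SNHG1 had 371, 350 and 327 FPKM in retained-intron isoforms against 50.8, 47.2 and 42.4, with the rest at 449, 447 and 358 against 316, 316 and 401. SNHG1-225, annotated as a lncRNA isoform of 3 exons and 3527 bases, rose by 3.62. SNHG5, a depleted gene, had its loss in the spliced isoforms, at 283, 280.3 and 225 against 834, 792 and 893 FPKM, and a gain in retained-intron ones at 21.6, 16.7 and 25.0 against 4.88, 1.71 and 4.30. In these 3 hosts the 2 groups did not overlap in the retained-intron sum. SNHG3 went another way: neither of its 2 retained-intron isoforms was enriched, with a median of 0.08, and its other isoform differed by 0.72. Its retained-intron isoforms summed to 646, 555 and 589 FPKM against 484, 484 and 428, which is most of the retained-intron FPKM of the 15 hosts in input set 3.

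**Figure D5:**
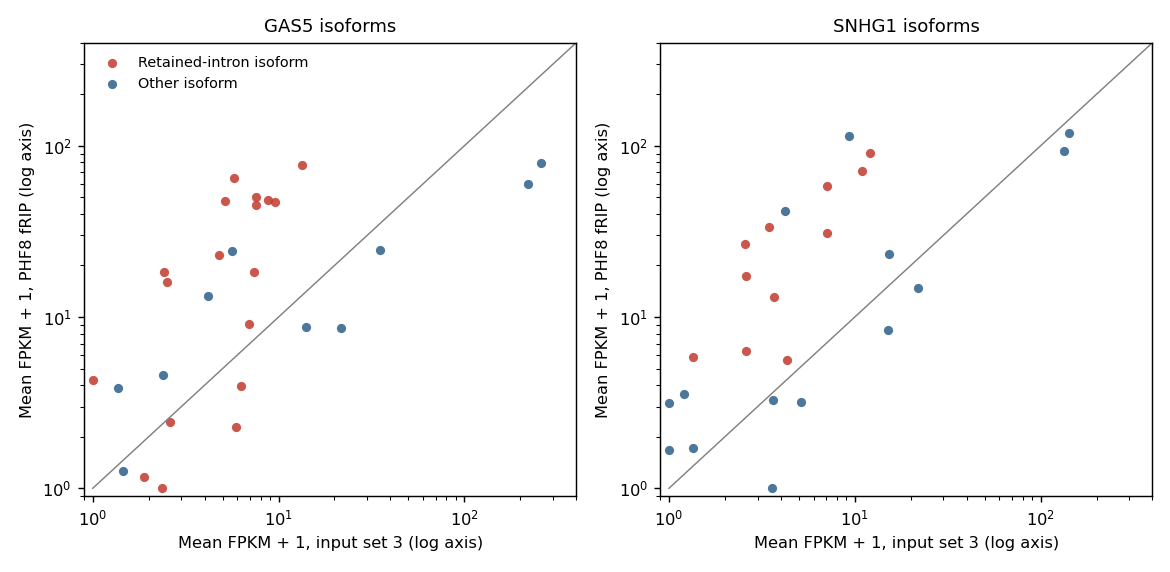
Mean FPKM + 1 of each GAS5 and SNHG1 isoform in input set 3 (horizontal) and in PHF8 fRIP (vertical), both on log axes, with retained-intron isoforms in red, other isoforms in blue and a line of equality. The red points lie mostly above the line, and the 2 most abundant GAS5 isoforms, GAS5-218 and GAS5-221, lie below it.

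Isoforms that contain a snoRNA followed this. Of 81 tested retained-intron isoforms that hold an annotated snoRNA, 48 were enriched (59.3%), against 22.8% of the 19309 that hold none, with medians of 1.23 and 0.55. Many snoRNAs are missing from the annotation used, so the second group may hold some too. Ribosomal protein genes, several of which are also snoRNA hosts, showed the split too. Their 208 retained-intron isoforms had 92 enriched and 8 depleted, with a median of 0.97, and their 381 coding isoforms had 27 enriched and 125 depleted, with a median of -0.54. The summed FPKM of the retained-intron isoforms was 2365, 2191 and 2825 in PHF8 fRIP against 2633, 2607 and 2843 in input set 3, while that of the coding isoforms was 17327, 19388 and 19739 against 50551, 45208 and 53088. The groups overlapped in the former sum and not in the latter. RPL4-211, which holds SNORD18A, had 11.4, 14.9 and 11.7 FPKM against essentially 0, while the coding RPL4-216 had 174, 239 and 197 against 490.1, 446 and 544. RPL4-203 went against its class with 225, 256 and 237 against 494, 516 and 547, and it is the most abundant of the gene's retained-intron isoforms. As genes of their own, 2 of 7 H/ACA snoRNAs, SNORA71A and SNORA67, were enriched and none of 6 C/D snoRNAs or 5 scaRNAs was called, beside 4.01% enriched of all genes. The H/ACA median of 0.56 was 0 against all 9 inputs, so no direction is given for that list. The small size of these RNAs makes FPKM uncertain.

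MIR17HG, the host of an oncogenic microRNA cluster, was among the enriched lncRNAs, at 239.5, 215 and 174 FPKM against 52.0, 49.8 and 47.2. Of its 3 isoforms, MIR17HG-203 has 2 exons and 5511 bases and holds all 6 hairpins of the cluster in its sequence. It had 141, 128 and 98.8 FPKM against 20.8, 21.3 and 21.8, a difference of 2.45. MIR17HG-201, in which the hairpins are spliced out, had 94.2, 86.3 and 71.2 against 29.5, 27.0 and 25.1, a difference of 1.58. MIR17HG-202 also holds the hairpins but was low, at 4.78, 0.831 and 4.10 against 1.69, 1.47 and 0.294, and was not called. In both enriched isoforms all PHF8 libraries lay above those of input set 3. As fRIP libraries were not made to measure mature microRNAs, these values concern the host RNA. The cluster is shown by the dominant mature strand of each hairpin (RefSeq, GRCh38.p14), with the seed, bases 2 to 8, in capitals, since the seed sets which family of targets a microRNA recognises.
hsa-miR-17-5p: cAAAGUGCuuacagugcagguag
hsa-miR-20a-5p: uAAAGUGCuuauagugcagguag
hsa-miR-18a-5p: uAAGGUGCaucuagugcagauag
hsa-miR-19a-3p: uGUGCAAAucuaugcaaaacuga
hsa-miR-19b-3p: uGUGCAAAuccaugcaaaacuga
hsa-miR-92a-3p: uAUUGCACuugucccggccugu
The first pair shares a seed, as do miR-19a and miR-19b, while miR-18a and miR-92a each have their own. MIRLET7DHG, which hosts let-7 microRNAs, had 83.9, 61.7 and 111 FPKM against 15.8, 16.6 and 15.4, and its mean was higher than that of each of the other 23 fRIPs, of which HNRNPH was next at 73.3. Of 12 host genes named for their microRNA, a list added after values were seen, these 2 were enriched and none was depleted, beside 4.01% and 1.67% of all genes. The median was 0.66 against 0.12 over all genes, or 0.33 against -0.21 with the median of tested genes set to 0.

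Directly against CHD7 fRIP, 2.25% of genes (572) were higher in PHF8 fRIP and 1.19% (302) were lower. With the median of tested genes set to 0 these became 260 and 615, so the balance turned. Of genes enriched over input set 3, 298 of 1021 were also higher than in CHD7 fRIP, and of depleted genes 48 of 426 were also lower. Against HUR fRIP, an AU-rich element binding protein, 9.74% (2479) were higher and 6.21% (1579) lower. Set on the median of abundant mRNAs, 38.8% of the called genes were higher instead of 61.1%. Globin mRNAs illustrate the difference: their median against input was -0.43 in PHF8 fRIP and -3.33 in HUR fRIP.

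Against the mean of the other 23 fRIPs, 3.18% of genes (808) were higher and 0.448% (114) lower. With the median of tested genes set to 0 these were 351 and 371. Without PHF8 replicate 3 the number of lower genes was 221. Genes called higher than the other fRIPs, with a mean of at least 10 FPKM and every PHF8 library above the mean of every other fRIP, numbered 6. RBM3, a cold-inducible RNA binding protein on chromosome X, was the most abundant, at 869, 948 and 726 FPKM, against 435, 338 and 402 in input set 3 and 652 in PABP fRIP, the next fRIP. Its difference from the other fRIPs was 1.5 (limma adjusted p = 1.38e-12) and from input set 3 was 1.11, or 0.79 with the median set to 0. CIRBP, its closest relative, looked up after values were seen, had 221, 168 and 204 FPKM against 198, 163 and 148 and was not called. The lncRNAs AC005104.3, AC079305.10 and SMARCA5-AS1 stood higher than in the other fRIPs by 2.01, 2.17 and 1.45, the last with 25.4, 18.8 and 21.8 FPKM against 11, 14.6 and 11.9 in input. The processed pseudogenes RP11-396C23.3 and RP11-452J6.2 were higher by 3.38 and 2.47. Of the 6, SMARCA5-AS1 at 0.77 and RP11-396C23.3 were not called against input set 3, where the latter was listed at 0 in 1 library and at 12.8 and 9.89 FPKM in the other two.

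Length, exon number and GC content of transcripts had weak correlations with the PHF8 values. Over 13300 genes, the Spearman correlation of the fRIP to input difference with transcript length was 0.0600 ± 0.025 in PHF8 fRIP, 0.178 ± 0.018 in CHD7 and 0.228 ± 0.040 in HUR (mean and SD over 3 libraries). With exon number it was -0.0418 ± 0.023 in PHF8 and 0.239 ± 0.124 in CHD7. With GC content it was -0.415 ± 0.056 in HUR, and in PHF8 the libraries disagreed, at 0.102, 0.248 and -0.122. Replicate 3 of CHD7 also turned negative, at -0.247, against 0.218 and 0.156. The strongest of the 5 features in PHF8 fRIP was input FPKM itself, at -0.249 ± 0.043, a measure that also enters the difference. These are descriptions across genes, which are not independent, and each library shares its inputs with the rest. Among mRNAs with at least 5 FPKM in input, the PHF8 values for length and exon number were 0.171 and 0.0959. By exon number, the fifth of genes with 1 or 2 exons had 9.1% enriched, while the fifth with 13 or more had 1.88%. The fifth of shortest transcripts held both more enriched (7.78%) and more depleted genes (4.59%) than the fifth of longest ones (2.93% and 0.226%).

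Regulators of splicing and genes of the red cell programme had few calls. SR protein and CLK kinase mRNAs, whose own introns are often retained, had 14 of 15 members above 0 but no call. Their median of 0.43 was 0.10 after the median of tested genes was set to 0, where the median difference over all genes was -0.21. CLK4 was the highest at 0.67. Of 22 hnRNP genes 1 was depleted, HNRNPA1P48, a copy of HNRNPA1, which makes it uncertain. Of 226 zinc finger genes on chromosome 19, 4 were enriched, a smaller share than the 4.01% of all genes, with ZNF446 at 1.73. Erythroid transcription factors had no call among 11, with GATA1 at -0.65, and globins none among 9, of which 8 lay below 0. Of 14 immediate early genes JUN was enriched, from 8.67, 13.8 and 8.28 FPKM to 32.3, 20.6 and 22.4, a difference of 1.22 ± 0.36 (SE; limma adjusted p = 0.00981), or 0.90 with the median set to 0.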

How the data were processed

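fRIP and input libraries of K562 cells were sequenced, and FPKM per gene and per transcript in each library were deposited by the authors, who aligned reads with TopHat and estimated FPKM with Cuffdiff 2 on hg19 and GENCODE 18. Strand and read filters of that step: not given in the sources used here. Fold, p and q columns of the deposited comparison table were not used; its group FPKM served to find the input set nearest to it. No column of another series was present.

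FPKM are not counts, so log2(FPKM + 1) was fitted with limma 3.58.1 in R 4.3.3, with 27 group means over 79 libraries, a shared spread and a mean trend. Testing was limited to genes and transcripts that reached 1 FPKM in 2 or more libraries, and p-values were adjusted over all of them by Benjamini-Hochberg. A feature was called at an adjusted p under 0.05 and over 2-fold. The scale understates the change of low genes. FPKM are shares of a library, so values are also given with libraries centred on the median of tested genes or of 6461 abundant mRNAs. Exact permutation tests were two-sided (scipy 1.17.1, Python 3.11.15). Scripts were tested on simulated data. Depth was inferred from steps between low values, 93.8% to 95.8% of which were whole multiples within 0.15.

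Of 48453 genes 46055, and of 185661 transcripts 172143, matched GENCODE 44 lifted to GRCh37, which gave classes and coordinates. Isoform classes are thus those of a later annotation than the one used for FPKM. MicroRNA hairpins were placed by their RefSeq sequence.

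Named genes were called genes in which every PHF8 library lay beyond all 9 inputs, with at least 10 FPKM in the higher group: the 8 mRNAs, 6 lncRNAs and 3 others with the largest change each way. Added to these were the 6 genes called against the other fRIPs and furthest above them, whether or not called against input, PHF8, and from lists the called and most abundant members; for transcripts, 4 per class. Some list members outside this rule are named for their known role. Members and gene lists were chosen with earlier results of these data known. The replicates are said by the study to come from separate dates and lysates. Replicate numbers were not taken to pair libraries. Alternatives were other pseudocounts, filters, scalings and inputs, fits of the compared libraries alone, and each replicate of PHF8, input set 3 or CHD7 left out. 1 marker of other cell types, enriched in PHF8 fRIP, is counted but not reported by name here.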

Additional observations from a re-analysis of the deposited data

How the results depend on the processing

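Of the values of 40 named genes under the alternatives, 659 kept direction and call, 54 kept direction but lost the call, 7 gained it and none reversed. Of list medians, 418 stayed within the spread of libraries and 121 moved. The balance of calls against input set 3 depended on scaling: centring on tested genes gave 290 enriched and 1116 depleted genes, and 4197 and 4842 transcripts, while centring on abundant mRNAs gave 662 enriched genes. A filter at 5 FPKM left 567 enriched genes, a fit of the 6 libraries alone 610, and a pseudocount of 0.1 gave 685 depleted genes. Against CHD7, centring gave 260 higher and 615 lower genes and the pseudocount of 0.1 gave 599 lower. Against HUR, centring on abundant mRNAs gave 2627 lower. Against the other fRIPs, the pseudocount of 0.1 gave 2127 higher and 576 lower, and centring 351 and 371. Apart from centring, whose construction shifts every gene, and the filter, which tests fewer genes, the cause was not tested.

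Leaving out 1 replicate of PHF8 or input set 3 gave 906 to 1257 enriched and 359 to 530 depleted genes, and 7236 to 9020 and 1978 to 2566 transcripts. Leaving out 1 of PHF8 or CHD7 gave 519 to 734 higher and 273 to 438 lower genes against CHD7. For HUR and the other fRIPs only PHF8 replicates were left out. This gave 2417 to 2742 higher and 1434 to 2034 lower genes against HUR, and 789 to 1081 and 92 to 221 against the other fRIPs, where 1081 was without PHF8 replicate 2 and 221 without PHF8 replicate 3. PHF8 mRNA ranged from 1.51 to 2.09 and the retained-intron difference from 10.6 to 12 percentage points, which was 9.23 (exact permutation test, p = 0.00455) against all 9 inputs.

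With replicate number as a block and only the 6 libraries compared, 0 genes were enriched and 1 depleted, 0 and 0 transcripts were called, as were 0 and 0 genes against CHD7, while 1236 were higher and 532 lower than in HUR fRIP. PHF8 mRNA kept its difference of 1.72 (limma adjusted p = 0.106). Deviations of PHF8 and input set 3 libraries of the same number correlated at 0.102, -0.029 and -0.0557, those of PHF8 and CHD7 at 0.128, 0.00786 and 0.247, and those of PHF8 and HUR at -0.0861, -0.0399 and -0.138. Not every pair exceeded 0.1 in any of these, so the libraries were taken to share only a number.

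Correlations with transcript length were 0.024 against all 9 inputs and 0.171 in mRNAs with at least 5 FPKM, where exon number gave 0.0959 and genomic span 0.083; that with input FPKM was -0.249 against input set 3 and -0.153 against all 9 inputs. PHF8 libraries have fewer fragments than inputs, so low genes and single isoforms are the least certain values.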
